A study of Mus musculus with 4 samples.

Results

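The tenocytes described here are 580 cells of injured mouse Achilles tendon that held transcripts of Tnmd, the gene of tenomodulin, together with collagen transcripts and none of the checked genes of endothelial cells, leukocytes or muscle stem cells. They were chosen by raw counts of unique molecular identifiers (UMIs) in single-cell libraries. A member had at least 3 UMIs of Tnmd, at least 20 UMIs of Col1a1, Col1a2 and Dcn together, and 0 UMIs of Pecam1, Cdh5, Ptprc and Pax7. Barcodes entered the choice if they had 500 genes or more, 1000 UMIs or more and less than 15% of UMIs from mitochondrial genes, which left 120 tenocytes of 6388 cells at Prox1 eGFP day 21 and 460 of 7071 cells at Vegfc CRE day 7. All 4 libraries of the series held 19021 such cells. The 9 genes that define the tenocytes and their comparison cells are given below as a description only, and they are left out of every count of genes. The comparison cells are Pdgfra fibroblasts of the same libraries, with at least 1 UMI of Pdgfra, 0 UMIs of Tnmd and the other limits unchanged, and there were 139 at day 21 and 880 in Vegfc CRE.

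The study used droplet sequencing of mouse Achilles tendon in 4 groups, each a single library of cells pooled from 5 tendons. Prox1 eGFP tendons were taken at day 0 with no treatment and at days 7 and 21 after an injury that the labels write as B/T, and Vegfc CRE tendons at day 7 after the same injury. Prox1 eGFP is a reporter line for Prox1 by its name, Vegfc CRE a Cre line for Vegfc, and no sex or age is given in the sources used here. The protocol text describes a flow sort for Prox1-expressing cells, whereas another label calls the same cells unsorted, so a sort can set every share of cells given here. With 1 library per group, no difference below has a replicate check and none was tested. Intervals are 95% intervals that cover counting error only, and cells of 1 library are not replicates. The libraries at day 21 and of Vegfc CRE differ in line, in day and possibly in sorting and in the sex of the pooled animals. These cannot be told apart. Of sex-linked genes, Xist was seen in 82.6% of all cells at day 21 and 29.5% in Vegfc CRE, and the Y-linked Ddx3y in 5.03% and 22.7%.

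Tenocytes are the fibroblast-like cells that build and maintain tendon, which is mostly parallel fibrils of type I collagen. The transcription factors scleraxis (Scx) and mohawk (Mkx) are known to act in tendon formation, and tenomodulin, a membrane protein encoded on the X chromosome, is a classical marker of mature tenocytes. Fibromodulin (Fmod) and keratocan (Kera) are small leucine-rich proteoglycans that bind collagen, and thrombospondin-4 (Thbs4) is a secreted glycoprotein of tendon and muscle attachment matrix. Pdgfra fibroblasts of tendon, many of them from the sheath and the loose tissue around the fascicles, make type I collagen too, so collagen alone does not separate these cells.

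The promoters of 4 of the 6 tenocyte markers are printed because the choice and the check of the cells rest on these genes. They come from the RefSeq table for GRCm38.p6, 250 bases before to 50 bases after the annotated start, 5′ to 3′ on the gene's strand. Capitals mark the E-box CANNTG, a motif that reads alike on both strands and is bound by basic helix-loop-helix factors, the class of scleraxis.
Tnmd, chrX:133850758-133851057, plus strand: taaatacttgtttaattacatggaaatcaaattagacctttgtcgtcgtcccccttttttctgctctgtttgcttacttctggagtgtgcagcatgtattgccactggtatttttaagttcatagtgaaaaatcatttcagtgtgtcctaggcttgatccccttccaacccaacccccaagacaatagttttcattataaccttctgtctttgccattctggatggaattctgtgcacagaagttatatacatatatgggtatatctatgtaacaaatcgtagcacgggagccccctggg
Fmod, chr1:134037004-134037303, plus strand: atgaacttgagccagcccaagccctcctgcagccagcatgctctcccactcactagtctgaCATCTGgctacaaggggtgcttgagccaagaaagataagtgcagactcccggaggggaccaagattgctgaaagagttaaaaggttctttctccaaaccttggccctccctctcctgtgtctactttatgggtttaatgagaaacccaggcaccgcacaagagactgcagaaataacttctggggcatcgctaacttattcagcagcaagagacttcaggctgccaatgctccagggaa
Thbs4, chr13:92794769-92795068, minus strand: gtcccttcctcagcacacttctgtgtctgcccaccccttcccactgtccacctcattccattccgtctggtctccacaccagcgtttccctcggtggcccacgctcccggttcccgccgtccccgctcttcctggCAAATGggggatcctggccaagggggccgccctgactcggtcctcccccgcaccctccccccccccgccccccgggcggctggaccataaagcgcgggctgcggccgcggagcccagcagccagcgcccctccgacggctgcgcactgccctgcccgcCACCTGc
Kera, chr10:97606955-97607254, plus strand: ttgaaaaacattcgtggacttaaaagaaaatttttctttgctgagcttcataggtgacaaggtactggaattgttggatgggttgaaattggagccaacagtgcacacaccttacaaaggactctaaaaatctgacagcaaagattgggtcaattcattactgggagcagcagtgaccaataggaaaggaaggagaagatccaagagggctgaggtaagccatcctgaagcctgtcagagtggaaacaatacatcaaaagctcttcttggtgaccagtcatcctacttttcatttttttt
The Fmod window holds 1 E-box, CATCTG, with its first base 189 bases before the start. The Thbs4 window holds 2 that do not overlap, CAAATG from 115 bases before the start and CACCTG from base 43 after it. The Tnmd and Kera windows hold none of these letters. Of 32851 promoters in the table, 72.3% hold at least 1 E-box and the median is 1, so a match or its absence in 1 window describes that window only. The Tnmd gene itself spans chrX:133850980-133865577 in the mouse annotation of the same genome build, mm10. Scx is on chromosome 15, and Mkx is not printed.

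Tenocytes made up 1.88% of the cells at day 21 (Clopper-Pearson interval 1.56 to 2.24%) and 6.51% in Vegfc CRE (5.94 to 7.11%). The same rule found 2 cells of 4872 in Prox1 eGFP at day 7 and 0 of 690 at day 0, which allows a share of up to 0.435% there at 3 counts of the total (Clopper-Pearson upper limit 0.533%). Tnmd itself ranged between 3 and 246 UMIs per tenocyte at day 21, with a median of 16, and between 3 and 174 in Vegfc CRE, with a median of 11. Just outside the threshold, 38 cells at day 21 and 205 in Vegfc CRE met every other limit with 1 or 2 Tnmd UMIs, and just inside it 18 and 94 tenocytes had 3 or 4. A further 32 and 103 cells had at least 3 Tnmd UMIs but broke another limit, and UMIs of Pecam1 or Cdh5 were the most frequent reason, in 23 and 55 of them. Tenocytes were deep cells, with a median of 22006 UMIs and 4337 genes at day 21 and 25507 UMIs and 4511.5 genes in Vegfc CRE, against 17043 and 22504.5 UMIs in the fibroblasts. A limit of 3 raw Tnmd UMIs favours deep cells and a limit of 0 shallow ones, so the choice itself can set part of this difference. In all they held 2858081 UMIs at day 21 and 11962913 in Vegfc CRE, so the Vegfc CRE levels carry the smaller counting error. The 2 libraries shared 6 cell barcodes, and 0 of these belonged to a tenocyte.

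The label of tenocytes was checked with the 5 markers that the rule did not use, and all 5 were higher in the tenocytes than in the fibroblasts of both libraries. Levels are given as counts per 1000000 UMIs of the cell group (CPM), summed over its cells, and a fold is the tenocyte level over the fibroblast level. Scx stood at 199.8 CPM in tenocytes and 28.4 in fibroblasts at day 21, 7.05-fold higher (95% interval 5.51 to 9.13), and at 228 and 26.4 CPM in Vegfc CRE, 8.65-fold higher (95% interval 7.90 to 9.50). Mkx had 15.7 and 2.76 CPM at day 21, 5.71-fold higher (95% interval 2.56 to 15), and 15.3 and 3.69 CPM in Vegfc CRE, 4.14-fold higher (95% interval 3.16 to 5.47). Both transcription factors were therefore low in the fibroblasts, and Mkx rested on few transcripts, 45 UMIs in the day 21 tenocytes and 7 in the fibroblasts beside them. Fmod had 715 and 101 CPM at day 21, 7.09-fold higher (95% interval 6.23 to 8.11), and 861 and 113 CPM in Vegfc CRE, 7.62-fold higher (95% interval 7.29 to 7.97). Thbs4 differed least, at 1578 and 566 CPM at day 21, 2.79-fold higher (95% interval 2.63 to 2.96), and 2016 and 539 CPM in Vegfc CRE, 3.74-fold higher (95% interval 3.66 to 3.83). Kera differed most, at 196 and 20.5 CPM at day 21, 9.55-fold higher (95% interval 7.18 to 12.9), and 139 and 5.21 CPM in Vegfc CRE, 26.7-fold higher (95% interval 22.0 to 32.6).

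Single cells carried these markers unevenly. To compare shares at 1 depth, each cell was thinned to 5000 UMIs, which left out 2 tenocytes and 12 fibroblasts at day 21 and 12 and 14 in Vegfc CRE. Scx was then seen in 32.2% (23.9 to 41.4) of day 21 tenocytes against 5.51% of fibroblasts, and in 40.8% (36.3 to 45.6) against 6.81% in Vegfc CRE. Without thinning, the tenocyte shares were 46.7% at day 21 and 63.9% in Vegfc CRE. Fmod was seen in 51.7% of thinned tenocytes against 18.9% of fibroblasts at day 21, and in 61.2% against 18.8% in Vegfc CRE. Kera was seen in 23.7% against 3.15% and in 22.8% against 1.5%, and Mkx in 10.2% against 1.57% and 7.59% against 1.5%. Thbs4 was the most widespread, in 74.6% of tenocytes against 41.7% of fibroblasts at day 21 and 78.6% against 40.2% in Vegfc CRE. At this depth 34.7% of the tenocytes at day 21 and 41.5% in Vegfc CRE showed at least 3 of the 5 markers, against 4.72% and 4.85% of the fibroblasts. None of the 5 was seen in 23 of 118 day 21 tenocytes and in 65 of 448 of Vegfc CRE, or 19.5% and 14.5%, against 52.0% and 52.1% of the fibroblasts.

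Free RNA in the droplets sets a background for such shares, which was read from cells that should lack these genes, without thinning. Cells with a Ptprc UMI, the leukocyte gene of CD45, held a Scx UMI in 1.63% at day 21 (123 cells, median 11055 UMIs) and in 2.39% in Vegfc CRE (3685 cells, median 6038 UMIs). Tnmd was at 1.63% and 3.47% of these cells, Fmod at 2.44% and 3.80%, Kera at 1.63% and 0.950%, Mkx at 2.44% and 0.570%, and Thbs4 at 3.25% and 8.74%. The tenocytes were deeper than these cells, and all 5 of their unthinned and thinned shares lay above them.

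**Figure D1:**
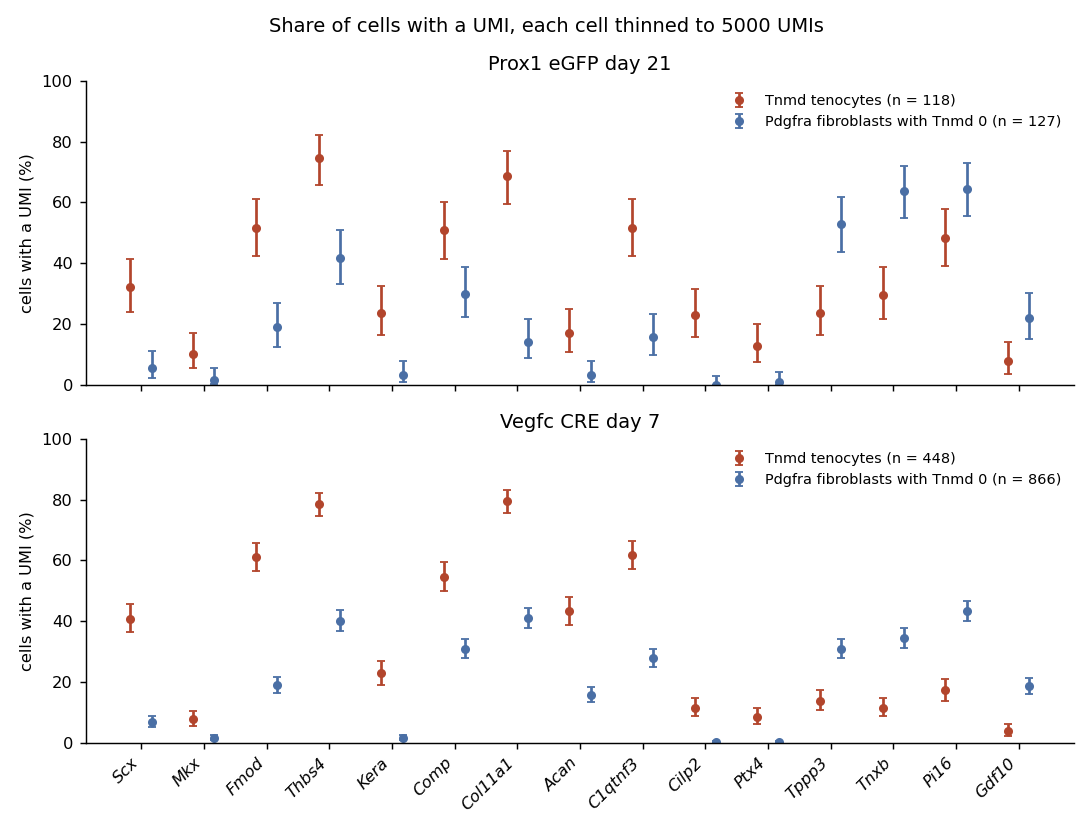
Percent of cells with at least 1 UMI of 15 genes (the 5 tenocyte markers that the rule did not use, other tendon matrix genes and, at the right, fibroblast genes), after every cell was thinned to 5000 UMIs, for tenocytes and Pdgfra fibroblasts of each library. Points are shares and bars their 95% Clopper-Pearson intervals; tenocytes stand above fibroblasts for all 5 markers in both libraries, with Scx at 32.2% against 5.51% at day 21 and 40.8% against 6.81% in Vegfc CRE.

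The level of Tnmd in a cell went with the levels of its other tendon genes, at day 21 mainly above 20 Tnmd UMIs. In Vegfc CRE these levels rose from the lowest bins upward, though not at every step. Cells that met every other limit were placed in 7 bins of 0, 1 to 2, 3 to 4, 5 to 9, 10 to 19, 20 to 49 and 50 or more Tnmd UMIs, the first 2 of which hold no tenocytes. Scx had 23.9, 46.3, 58.4, 19.4, 38.6, 241 and 538 CPM in these bins at day 21, and 33.7, 55.7, 108, 73.7, 181, 389 and 461 CPM in Vegfc CRE. At day 21 the 3 tenocyte bins under 20 Tnmd UMIs lay on either side of the cells with 1 or 2 Tnmd UMIs, and the 2 bins from 20 UMIs upward lay far above them. In Vegfc CRE, Scx was above the level of the 1 to 2 bin in each tenocyte bin, but lower at 5 to 9 than at 3 to 4 UMIs. Fmod had 117, 128, 79.6, 120.3, 173, 886 and 1899 CPM at day 21, and 122, 239, 345, 361, 737, 1312 and 1806 CPM in Vegfc CRE. Thbs4 had 468, 504, 324, 904, 794, 1958 and 3194 CPM at day 21, and 537, 672, 969.8, 1317, 2607, 2689 and 2724 CPM in Vegfc CRE. The last 3 bins of Vegfc CRE lay close together. Kera had 4.78, 8.25, 38.8, 36.3, 105, 206 and 366 CPM in Vegfc CRE, and 18.1, 45.0, 69.0, 31.0, 80.3, 116 and 598 at day 21. Pi16, a marker of adventitial fibroblasts, ran the other way, with 463, 285, 189.9, 214, 163, 79.1 and 10.0 CPM in Vegfc CRE, and 879, 713, 1236, 1399, 663, 563 and 138 at day 21. At day 21 Pi16 was thus highest in the tenocytes with 5 to 9 Tnmd UMIs and lowest in those with 50 or more. The bins are a description: their cells share a library but differ in depth, with a median of 14343.5 UMIs in the 0 bin and 24979.5 in the top bin at day 21 and 21104 and 28253 in Vegfc CRE. The day 21 bins of 3 to 4 UMIs held 18 cells and the others 23 to 222.

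**Figure D2:**
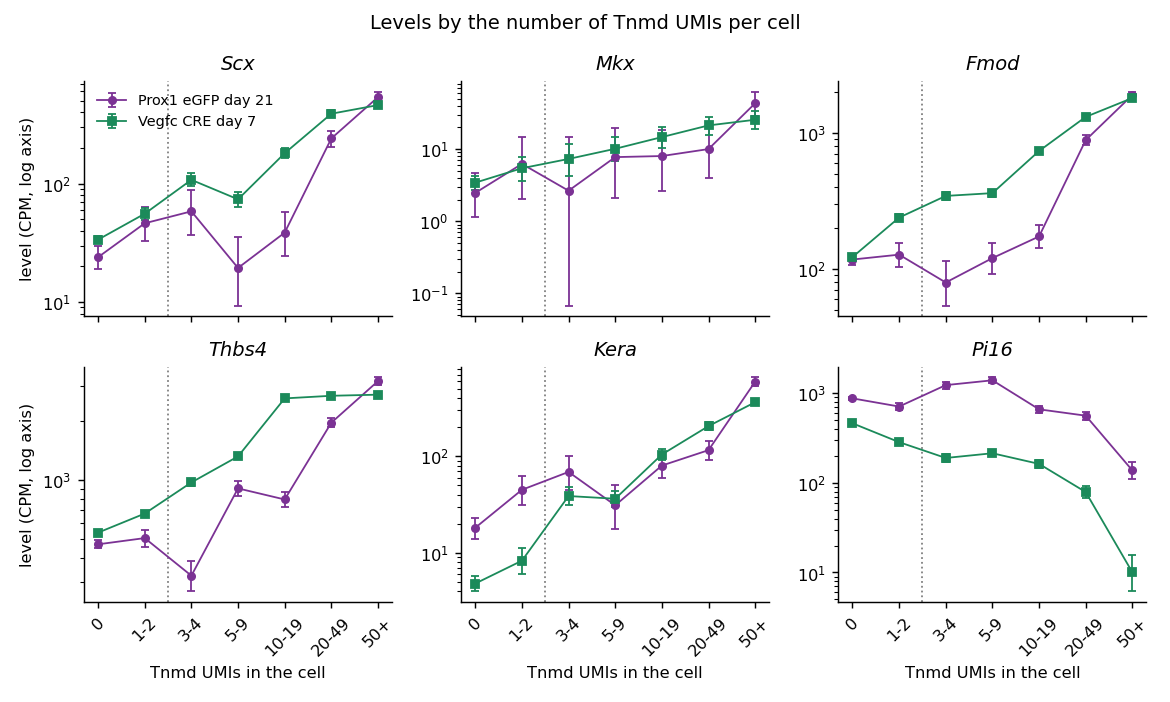
Summed CPM (log axes) of 5 tendon genes and Pi16 in cells binned by their Tnmd UMIs, in each library, with 95% counting intervals; cells left of the dotted line, below 3 Tnmd UMIs, are not tenocytes. Fmod reached 1899 CPM in the top bin at day 21 and 1806 in Vegfc CRE, and Pi16 was lowest there.

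Clustered within each library, the tenocytes fell into 4 groups at day 21 and 6 in Vegfc CRE, and the groups differed in whether they held the other tendon genes. The genes that define a cluster are given as a description of it, since the clusters were made from the same counts. In both libraries 1 cluster led with Chodl, Ptx4 and Col22a1, the gene of a collagen of the muscle-tendon junction. It held 31 cells at day 21 and 58 in Vegfc CRE. Its Scx stood at 502 CPM at day 21 and 758 in Vegfc CRE, its Fmod at 2320.1 and 4101, its Kera at 838 and 783, and its Thbs4 at 3628 and 6229 CPM. Its Tnmd was 3309 CPM at day 21, the highest of the 4 clusters, and 1845 in Vegfc CRE, the highest of the 6. In Vegfc CRE this cluster also led with Mmp13, an interstitial collagenase, and carried 2956 CPM of Spp1, the gene of osteopontin, with a median of 12863.5 UMIs per cell, the lowest of the 6.

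A cluster of the opposite kind was also found in both libraries. It held 37 tenocytes at day 21, the largest cluster there with 30.8% of the members, and 51 in Vegfc CRE, or 11.1%. Pi16 stood at 1653 and 1209.8 CPM in it, Tnxb, the gene of tenascin-X, at 462 and 417, and Ly6a at 3094 and 2691. Scx was nearly missing from it, at 1.19 CPM in 2.70% of its cells at day 21 and 0.933 CPM in 1.96% in Vegfc CRE, while Tnmd was at 505 and 459 CPM. These cells passed the limit on Tnmd but their leading genes are those of adventitial fibroblasts, so the label of tenocytes does not hold for them by Scx, and they are called Pi16 cells below. At day 21 they also led with Myoc, the gene of myocilin, at 1270.4 CPM.

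The other clusters had Scx levels between these. A cluster of 33 day 21 members led with the smooth muscle actins Actg2 and Acta2 and with Igfbp2. It held 2383 CPM of Acta2, 269 CPM of Scx, 277 of Acan and 1521 of C1qtnf3. In Vegfc CRE the largest cluster, of 130 cells, held C1qtnf3 at 2261 CPM, Acan, the gene of aggrecan, at 620.1, Tnn, the gene of tenascin-W, at 659.7, and Scx at 409 CPM in 97.7% of its cells. A cluster of 39 Vegfc CRE tenocytes led with genes of mitosis such as Hmmr and Cenpf. It had 169.8 CPM of Mki67, 2766 of Acta2 and 239.7 of Scx, with the highest median depth, 40352 UMIs. A cluster of 53 in Vegfc CRE led with Alpl, the gene of tissue-nonspecific alkaline phosphatase, and the granzyme genes Gzmb, Gzmc and Gzme. It held 235 CPM of Gzmc, 1161 of Cxcl5 and 32.6 of Scx. That Scx level was near the 33.7 CPM of the Vegfc CRE cells with 0 Tnmd UMIs in the bins above. By Scx the label of tenocytes is therefore uncertain for this cluster. A cluster of 129 in Vegfc CRE held 170.2 CPM of Cd74 and 55.5 of Tyrobp, both genes of immune cells, and Scx at 89.5. The last 19 day 21 members led with Hp and Ptx3. They held 25.9 CPM of Scx, near the fibroblast level, and 4.71 of Kera, below it. They held 1038 CPM of Pi16 in 78.9% of the cells. By Scx and Kera the label of tenocytes is not borne out for them either. The statements on the label of clusters rest on Scx, and for these 19 cells on Kera too. The other markers were not weighed for them. Neither the day 21 group with Actg2 nor the Vegfc CRE group with Cd74 was given a cell type name. With a finer clustering, a setting chosen after the data were seen, day 21 again gave 4 clusters and Vegfc CRE gave 8.

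**Figure D3:**
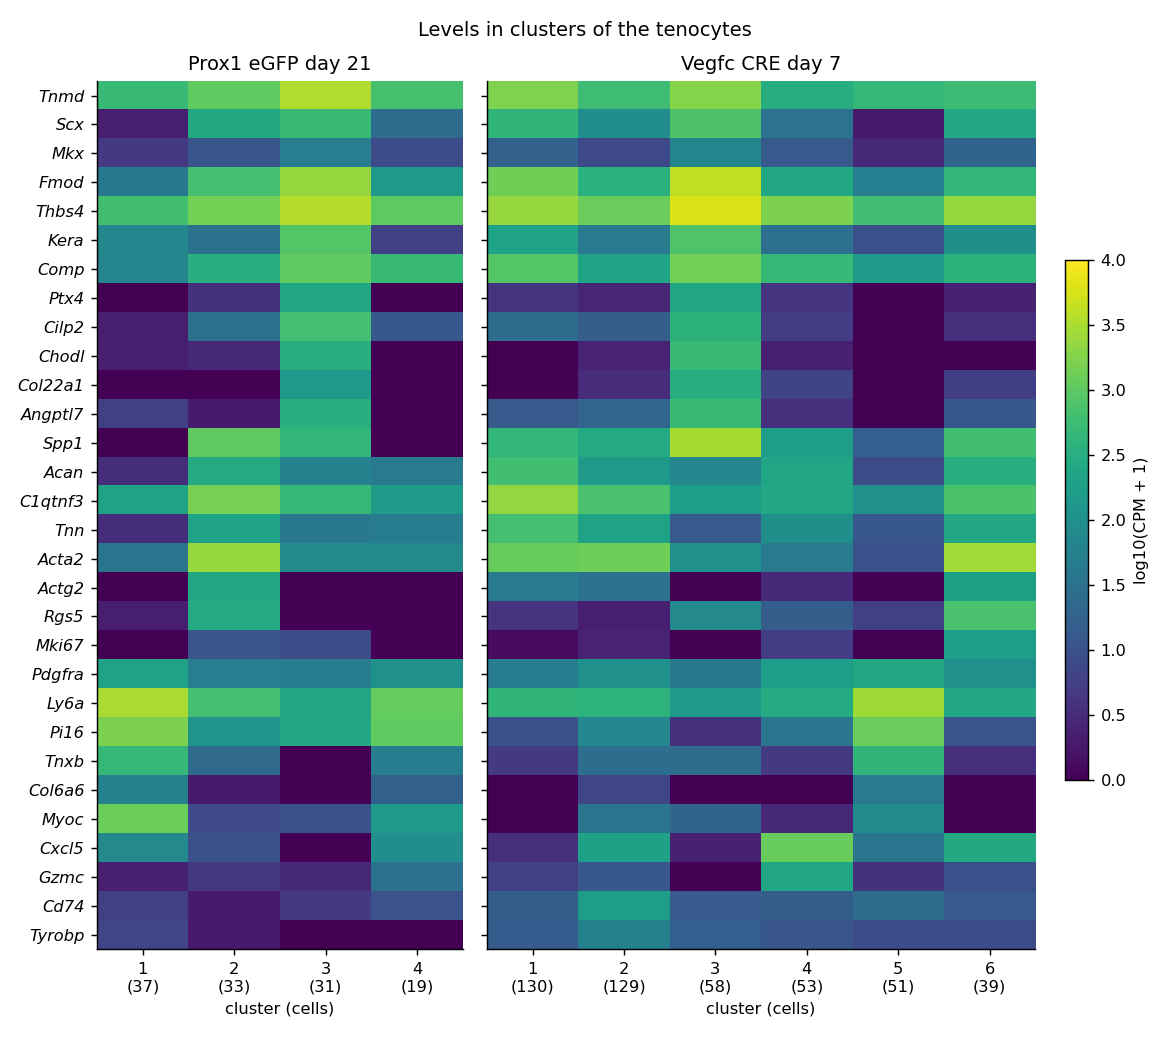
Level of tendon, fibroblast and other genes (log10 of CPM + 1) in each cluster of tenocytes, with day 21 clusters in the left panel and Vegfc CRE clusters in the right one and the number of cells at each column. Scx is near 0 in the Pi16 cluster of each library, 1.19 CPM at day 21 and 0.933 in Vegfc CRE, and highest in the Ptx4 cluster, 502 and 758 CPM.

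Across the thinned tenocytes, 118 at day 21 and 448 in Vegfc CRE, rank correlations over cells are given as a description with no test, since the cells of each library share its RNA background and the clusters above use the same counts. Of 4321 genes, ranked by the smaller of both libraries' values, Fmod went most closely with Tnmd, with a Spearman's rho of 0.57 at day 21 and 0.50 in Vegfc CRE, followed by Thbs4 with 0.70 and 0.41. Ifitm3, an interferon-induced membrane protein gene, was the most negative, with -0.44 and -0.37. Scx also went most closely with Fmod, at 0.58 and 0.51, and then Thbs4, at 0.53 and 0.44. Its most negative partners included Sfrp1, a secreted Wnt inhibitor, with -0.41 and -0.44, and Serping1, the C1 inhibitor of complement, with -0.56 and -0.40. Acan went with C1qtnf3, at 0.43 and 0.51.

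Set against the Pdgfra fibroblasts of the same library, the tenocytes held more of the tendon matrix genes and less of the genes of resting fibroblasts, and the medians of the chemokine and complement lists were below 0 on the log2 scale. Genes with at least 30 UMIs over both groups were compared, and a gene is counted as higher or lower where the levels were at least 2-fold apart. At day 21, 250 of 9295 genes were higher, 2.69%, and 326 lower, 3.51%. In Vegfc CRE, 311 of 12989 were higher, 2.39%, and 483 lower, 3.72%. The median log2 fold over all these genes was -0.03 at day 21 and -0.07 in Vegfc CRE. Of the 9287 genes compared in both libraries, 63 were higher in both, which is 25.7% of the 245 at day 21 and 64.9% of the 97 in Vegfc CRE, and 119 were lower in both, 36.5% of 326 and 58.9% of 202. Another 5 genes were higher at day 21 and lower in Vegfc CRE, and 1 was the reverse.

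**Figure D4:**
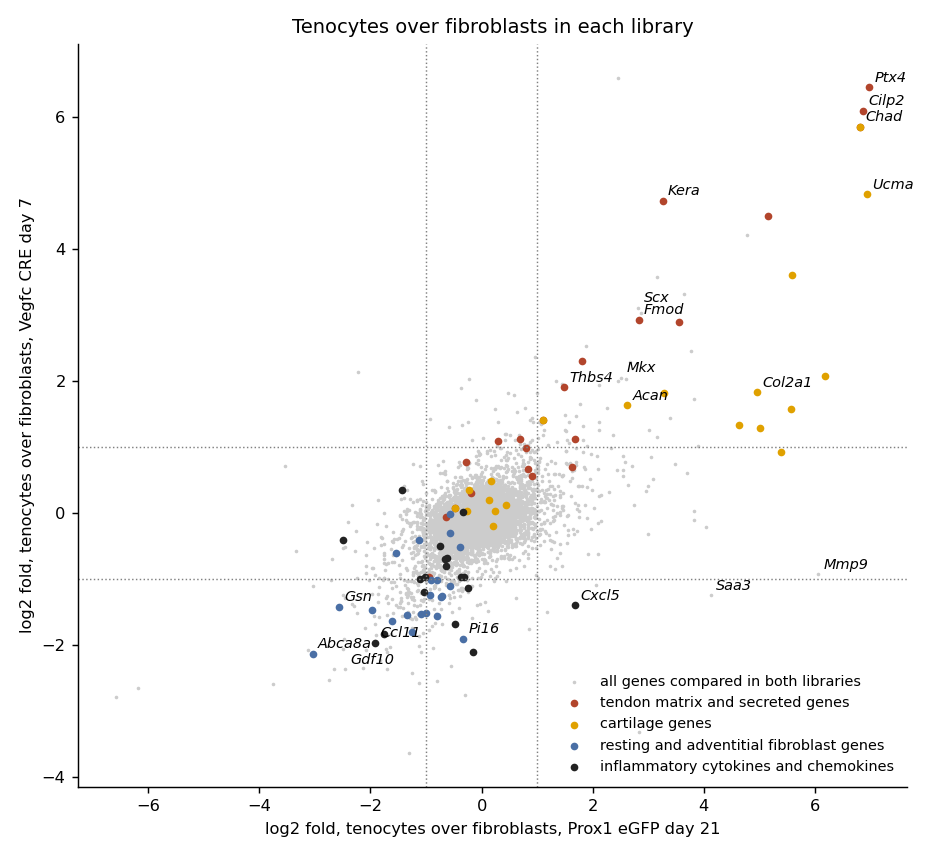
Log2 fold of tenocytes over Pdgfra fibroblasts for all genes compared in both libraries (grey) and 4 gene lists (colours), Vegfc CRE day 7 on the vertical and Prox1 eGFP day 21 on the horizontal axis, with dotted lines at 2-fold. Ptx4, Cilp2 and Chad lie at the upper right, Ptx4 at 6.98 at day 21 and Cilp2 and Chad, with 0 UMIs in the day 21 fibroblasts, at lower bounds of 6.87 and 6.81, and Cxcl5 and Saa3 are higher at day 21 and lower in Vegfc CRE.

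Of the tendon matrix and secreted genes, 12 of 22 at day 21 and 13 of 22 in Vegfc CRE were at least 2-fold higher, 0 and 0 at least 2-fold lower, with median log2 folds of 1.29 and 1.13. The largest differences were in genes that fibroblasts all but lacked. Ptx4, a gene of the pentraxin family, had 49.7 CPM in tenocytes against 0.394 in fibroblasts at day 21 (126-fold higher, interval 22.3 to 5018) and 16.6 against 0.189 CPM in Vegfc CRE (87.8-fold higher, interval 33.8 to 325). Cilp2, related to the cartilage intermediate layer protein, had 138 CPM in tenocytes against 0 in fibroblasts at day 21 (at least 117-fold higher) and 35.7 against 0.521 CPM in Vegfc CRE (68.5-fold higher, interval 37.9 to 138). Chad, the gene of chondroadherin, a collagen-binding leucine-rich protein, had 133 CPM in tenocytes against 0 in fibroblasts at day 21 (at least 113-fold higher) and 19.2 against 0.332 CPM in Vegfc CRE (58.0-fold higher, interval 27.7 to 146). Bounds written as at least stand against a floor of 3 UMIs over the fibroblast group. These 3 genes were not in every tenocyte: a UMI was seen in 15.8% of them at day 21 and 12% in Vegfc CRE for Ptx4, 30.8% and 19.1% for Cilp2, and 15% and 8.91% for Chad. Col22a1 had 28.0 CPM in tenocytes against 0.788 in fibroblasts at day 21 (35.5-fold higher, interval 9.52 to 299) and 21.5 against 0.947 CPM in Vegfc CRE (22.7-fold higher, interval 14.4 to 37.8). Comp, the cartilage oligomeric matrix protein, Fibin and Angptl7 were also over 2-fold higher in both libraries. Comp was higher by 2.14 (1.93 to 2.38) at day 21 and 2.65 (2.54 to 2.75) in Vegfc CRE. A single day 21 tenocyte, described with the cartilage genes below, held 15.6% of the Comp UMIs there, so the day 21 fold rests in part on that cell. Cilp itself had 468 CPM in tenocytes and 571 in fibroblasts at day 21 and 338 and 198 in Vegfc CRE, so its folds lay on either side of 1.

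Most small leucine-rich proteoglycans did not share the difference of Fmod and Kera. In that list, 3 of 13 at day 21 and 4 of 15 in Vegfc CRE were at least 2-fold higher, 0 and 0 at least 2-fold lower, with median log2 folds of 0.23 and 0.35, and Chad is a member of it too. Lum, the gene of lumican, had 2853 CPM in tenocytes and 2816 in fibroblasts at day 21 and 1849.5 and 1748 CPM in Vegfc CRE. Bgn, the gene of biglycan, had 3191 and 2726 CPM at day 21 and 3739 and 3095 CPM in Vegfc CRE. Aspn, the gene of asporin, was 1.21-fold higher in tenocytes at day 21 and 2.03-fold higher in Vegfc CRE. Among fibrillar and fibril-associated collagens, 8 of 15 at day 21 and 5 of 17 in Vegfc CRE were at least 2-fold higher, 0 and 1 at least 2-fold lower, with median log2 folds of 1.53 and 0.47. Col11a1, a chain of the minor fibrillar collagen that nucleates fibrils, had 756 CPM in tenocytes against 93.3 in fibroblasts at day 21 (8.11-fold higher, interval 7.09 to 9.31) and 733 against 306 CPM in Vegfc CRE (2.40-fold higher, interval 2.32 to 2.48). The single day 21 tenocyte described with the cartilage genes below held 15.4% of the day 21 Col11a1 UMIs. Col12a1, a fibril-associated collagen of tendon, had 497 CPM in tenocytes against 172 in fibroblasts at day 21 (2.88-fold higher, interval 2.59 to 3.22) and 869 against 513 CPM in Vegfc CRE (1.69-fold higher, interval 1.65 to 1.74). Col3a1, abundant in scar and loose tissue, had 15754 and 17200.1 CPM at day 21 and 15749.8 and 18572 CPM in Vegfc CRE. Col5a3 was the one fibrillar chain at least 2-fold lower, by 2.21 (2.10 to 2.33) in Vegfc CRE, with 1.90 (1.72 to 2.10) at day 21. Col15a1, a collagen near basement membranes, had 69.3 CPM in tenocytes against 212 in fibroblasts at day 21 (3.06-fold lower, interval 2.59 to 3.62) and 20.4 against 63.7 CPM in Vegfc CRE (3.13-fold lower, interval 2.73 to 3.60).

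Cartilage genes were higher in tenocytes too, but at day 21 a single cell supplied much of that difference. In the list, 13 of 21 at day 21 and 12 of 23 in Vegfc CRE were at least 2-fold higher, 0 and 0 at least 2-fold lower, with median log2 folds of 3.29 and 1.28. One day 21 tenocyte of 50124 UMIs, with 76 UMIs of Tnmd and 8 of Scx, held 89 of the 105 Col2a1 UMIs of all 120 members, or 84.8%. It also held 94.0% of the UMIs of Col9a3, 91.5% of Hapln1, 91.2% of Ucma, 89.4% of Col9a1 and 68.8% of Matn3, all genes of hyaline cartilage matrix or its cells. Without this cell, an alternative chosen after the data were seen, 6 of 15 cartilage genes were higher at day 21 and 0 lower, and the median log2 fold was 0.35. The fibrillar collagen list then had 5 of 12 higher with a median of 0.47, and the tendon matrix list had 11 of 22 with a median of 1.21. Acan rested less on it, with 23.8% of its UMIs in that cell. Acan had 119 CPM in tenocytes against 19.3 in fibroblasts at day 21 (6.17-fold higher, interval 4.56 to 8.50) and 297 against 95.9 CPM in Vegfc CRE (3.10-fold higher, interval 2.93 to 3.27), and after thinning it was seen in 16.9% of tenocytes against 3.15% of fibroblasts at day 21 and 43.3% against 15.7% in Vegfc CRE. Matn4, the gene of matrilin-4, had 149.8 CPM in tenocytes against 3.15 in fibroblasts at day 21 (47.5-fold higher, interval 23.9 to 111) and 65.5 against 22.0 CPM in Vegfc CRE (2.98-fold higher, interval 2.65 to 3.35), with 1.64% of the day 21 UMIs in that cell. In Vegfc CRE the tenocyte with most Col2a1 held 7.92% of the members' UMIs of that gene. Sox9, the factor that drives cartilage formation, was close in both cell groups, at 75.6 and 68.5 CPM at day 21 and 98.7 and 85.9 in Vegfc CRE. Col10a1, the collagen of hypertrophic cartilage, had 148 UMIs in day 21 tenocytes, 62.8% of them in 1 cell, and 0 in each of the other 3 cell groups.

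Among regulators of tendon, Scx and Mkx were the 2 members at least 2-fold higher in both libraries. In that list, 2 of 14 at day 21 and 4 of 16 in Vegfc CRE were at least 2-fold higher, 0 and 1 at least 2-fold lower, with median log2 folds of 0.23 and 0.01. Six2 was called in Vegfc CRE, at 3.09 CPM in tenocytes and 0.426 in fibroblasts, 7.26-fold higher (95% interval 3.44 to 17.1), and had too few UMIs to be compared at day 21. Egr1, a factor that responds to mechanical load in tendon, was lower in tenocytes, at 359 CPM and 554 in fibroblasts at day 21, 1.54-fold lower (95% interval 1.42 to 1.67), and 149 and 213 CPM in Vegfc CRE, 1.44-fold lower (95% interval 1.36 to 1.52). Klf4 was lower as well, by 1.81 (1.65 to 1.99) at day 21 and 2.19 (2.01 to 2.39) in Vegfc CRE. Both are also immediate early genes, a group described with the libraries below.

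Genes of resting and adventitial fibroblasts were lower in the tenocytes. In that list, 0 of 21 at day 21 and 0 of 21 in Vegfc CRE were at least 2-fold higher, 10 and 16 at least 2-fold lower, with median log2 folds of -0.94 and -1.27. Gsn, the gene of the actin-severing protein gelsolin, had 1001 CPM in tenocytes against 5921 in fibroblasts at day 21 (5.91-fold lower, interval 5.68 to 6.16) and 412 against 1105 CPM in Vegfc CRE (2.68-fold lower, interval 2.60 to 2.77). Abca8a, a lipid transporter gene, had 13.3 CPM in tenocytes against 109 in fibroblasts at day 21 (8.23-fold lower, interval 5.85 to 11.9) and 5.60 against 24.6 CPM in Vegfc CRE (4.40-fold lower, interval 3.40 to 5.76). Tnxb had 151 CPM in tenocytes against 359.9 in fibroblasts at day 21 (2.38-fold lower, interval 2.12 to 2.68) and 48.8 against 171 CPM in Vegfc CRE (3.51-fold lower, interval 3.21 to 3.84). Pi16 was 1.26-fold lower (95% interval 1.19 to 1.34) at day 21 and 3.74-fold lower (95% interval 3.56 to 3.95) in Vegfc CRE, and the Pi16 cells are part of the day 21 level of 728 CPM. When members were limited to those with at least 1 Scx UMI, 56 of 120 at day 21 and 294 of 460 in Vegfc CRE, 18 and 16 of 21 were lower, with medians of -1.94 and -2.01. That limit, chosen after the data were seen, uses a gene that varies with these lists among tenocytes.

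The medians of chemokine and complement genes were below those of all genes too. Of inflammatory cytokines and chemokines, 1 of 18 at day 21 and 0 of 24 in Vegfc CRE were at least 2-fold higher, 7 and 9 at least 2-fold lower, with median log2 folds of -0.65 and -0.97. Ccl11, the gene of the eosinophil chemokine eotaxin, had 56.7 CPM in tenocytes against 214 in fibroblasts at day 21 (3.78-fold lower, interval 3.17 to 4.53) and 17.5 against 68.4 CPM in Vegfc CRE (3.91-fold lower, interval 3.38 to 4.55). Ccl19, a ligand of CCR7, had 30.4 CPM in tenocytes against 103 in fibroblasts at day 21 (3.39-fold lower, interval 2.65 to 4.37) and 8.61 against 30.7 CPM in Vegfc CRE (3.57-fold lower, interval 2.90 to 4.44). Il33, an alarmin of stromal cells, differed between the libraries, with 114 CPM in tenocytes and 127 in fibroblasts at day 21, and 13.4 and 57.8 CPM in Vegfc CRE, 4.32-fold lower (95% interval 3.66 to 5.13). Of complement and innate defence genes, 3 of 15 at day 21 and 0 of 16 in Vegfc CRE were at least 2-fold higher, 4 and 9 at least 2-fold lower, with median log2 folds of -0.58 and -1.13. C3, the central complement component, was 2.50-fold lower (95% interval 2.28 to 2.75) in tenocytes at day 21 and 2.28-fold lower (95% interval 2.20 to 2.37) in Vegfc CRE. The higher members at day 21 included Saa3, an acute phase gene, and Slpi, a protease inhibitor. Slpi had 168 CPM in tenocytes and 11.8 in fibroblasts, but 42.3% of its tenocyte UMIs came from 1 cell. For Saa3 that share was 67.8%.

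For cell cycle genes, 0 of 12 at day 21 and 0 of 21 in Vegfc CRE were at least 2-fold higher, 6 and 0 at least 2-fold lower. Their median log2 folds of -0.74 and -0.43 lay below the -0.03 and -0.07 of all genes. Most signalling lists had medians nearer to those of all genes. For the TGF-beta pathway, 0 of 22 at day 21 and 0 of 23 in Vegfc CRE were at least 2-fold higher, 1 and 1 at least 2-fold lower, with median log2 folds of 0.04 and -0.06, and Ltbp4, which binds latent TGF-beta, was the lower member in both. Tgfb3 had 74.9 CPM in tenocytes and 66.2 in fibroblasts at day 21 and 94.7 and 66.6 CPM in Vegfc CRE. For the BMP and GDF pathway, 1 of 20 at day 21 and 1 of 24 in Vegfc CRE were at least 2-fold higher, 2 and 3 at least 2-fold lower, with median log2 folds of -0.23 and -0.29. Gdf10, a secreted ligand of that family, had 21.3 CPM in tenocytes against 118 in fibroblasts at day 21 (5.52-fold lower, interval 4.18 to 7.39) and 11.1 against 57.4 CPM in Vegfc CRE (5.17-fold lower, interval 4.32 to 6.23). For Wnt ligands and secreted inhibitors, 2 of 15 at day 21 and 4 of 19 in Vegfc CRE were at least 2-fold higher, 4 and 2 at least 2-fold lower, with median log2 folds of -0.24 and -0.12. Wif1, a secreted Wnt inhibitor, was 11.8-fold higher (95% interval 4.34 to 44.8) in tenocytes at day 21 and 7.43-fold higher (95% interval 4.46 to 13.0) in Vegfc CRE, while Sfrp4, another, was 2.72-fold lower (95% interval 2.51 to 2.95) and 2.52-fold lower (95% interval 2.38 to 2.67). For the FGF and PDGF pathway, 5 of 16 at day 21 and 0 of 18 in Vegfc CRE were at least 2-fold higher, 1 and 2 at least 2-fold lower, with median log2 folds of -0.18 and -0.11. Pdgfa, a ligand of the receptor encoded by Pdgfra, was 2.02-fold higher (95% interval 1.55 to 2.65) and 1.57-fold higher (95% interval 1.41 to 1.74) in tenocytes.

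Vegfc, the gene that names the Cre line, a growth factor of lymphatic vessels, was low in tenocytes and close to the fibroblast level. It had 8.4 CPM in tenocytes and 8.27 in fibroblasts at day 21, and 4.26 and 4.12 CPM in Vegfc CRE. After thinning it was seen in 5.08% and 3.94% of cells at day 21 and 1.34% and 1.39% in Vegfc CRE. For VEGF ligands and receptors as a list, 0 of 8 at day 21 and 1 of 10 in Vegfc CRE were at least 2-fold higher, 1 and 0 at least 2-fold lower, with median log2 folds of -0.13 and -0.33. Vegfd, its relative, had 40.6 and 50.4 CPM at day 21 and 36.6 and 58.2 CPM in Vegfc CRE. Prox1, the lymphatic transcription factor that names the other line, had 7.00 CPM in tenocytes and 5.91 in fibroblasts at day 21 and 0.669 and 0.900 CPM in Vegfc CRE. Over all cells, the 7 lymphatic endothelial markers, Prox1 among them, summed to 7531 CPM at day 21 and 102 in Vegfc CRE. The part of free RNA in these Prox1 levels was not tested.

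Genes of collagen secretion differed little in size between tenocytes and fibroblasts. For collagen processing and cross-linking, 1 of 28 at day 21 and 1 of 32 in Vegfc CRE were at least 2-fold higher, 1 and 2 at least 2-fold lower, with median log2 folds of 0.20 and 0.10. For secretory load and the unfolded protein response, 0 of 21 at day 21 and 0 of 21 in Vegfc CRE were at least 2-fold higher, 0 and 0 at least 2-fold lower, with median log2 folds of 0.10 and 0.04. For mechanosensing and YAP targets, 1 of 21 at day 21 and 1 of 24 in Vegfc CRE were at least 2-fold higher, 0 and 0 at least 2-fold lower, with median log2 folds of 0.15 and 0.06, and for glycolysis and hypoxia genes, 3 of 20 at day 21 and 0 of 20 in Vegfc CRE were at least 2-fold higher, 1 and 1 at least 2-fold lower, with median log2 folds of 0.35 and 0.03. For elastic fibre and microfibril genes, 1 of 22 at day 21 and 0 of 22 in Vegfc CRE were at least 2-fold higher, 4 and 4 at least 2-fold lower, with median log2 folds of -0.37 and -0.24. For matrix metalloproteinases and inhibitors, 2 of 20 at day 21 and 1 of 21 in Vegfc CRE were at least 2-fold higher, 2 and 3 at least 2-fold lower, with median log2 folds of 0.08 and -0.44. Mmp13 was 1.95-fold higher (95% interval 1.54 to 2.48) in tenocytes at day 21 and 5.16-fold higher (95% interval 4.83 to 5.52) in Vegfc CRE, where it led the Ptx4 cluster. For injury-activated fibroblast genes, 4 of 27 at day 21 and 3 of 28 in Vegfc CRE were at least 2-fold higher, 1 and 0 at least 2-fold lower, with median log2 folds of 0.15 and 0.11. Tagln, the gene of the actin-binding protein transgelin, had 829 CPM in tenocytes against 285 in fibroblasts at day 21 (2.91-fold higher, interval 2.67 to 3.16) and 833 against 387 CPM in Vegfc CRE (2.15-fold higher, interval 2.09 to 2.22). Acta2 was 4.89-fold higher (95% interval 4.43 to 5.41) at day 21, with 34.8% of its tenocyte UMIs in 1 cell, and 1.25-fold higher (95% interval 1.22 to 1.28) in Vegfc CRE. Postn and Cthrc1, secreted proteins of repair tissue, were between 1.46-fold and 1.96-fold higher in tenocytes of both libraries.

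Further genes differed in both libraries, most of them in none of the lists. C1qtnf3, a secreted protein of the C1q family known from cartilage and tendon, had 727 CPM in tenocytes against 167 in fibroblasts at day 21 (4.34-fold higher, interval 3.91 to 4.83) and 1013 against 263 CPM in Vegfc CRE (3.85-fold higher, interval 3.73 to 3.98). Scube2, a secreted protein that releases hedgehog ligands, had 38.1 CPM in tenocytes against 6.30 in fibroblasts at day 21 (6.05-fold higher, interval 3.56 to 11) and 19.1 against 4.64 CPM in Vegfc CRE (4.11-fold higher, interval 3.23 to 5.26). Gas2, an actin-associated protein gene, had 69.3 CPM in tenocytes against 14.6 in fibroblasts at day 21 (4.76-fold higher, interval 3.33 to 6.95) and 48.5 against 16.1 CPM in Vegfc CRE (3.02-fold higher, interval 2.64 to 3.46). Edil3, which binds integrins, and Hbegf, a ligand of the EGF receptor, were 2.83-fold higher (95% interval 2.20 to 3.67) and 2.97-fold higher (95% interval 2.17 to 4.11) at day 21, and 2.79-fold higher (95% interval 2.48 to 3.14) and 2.08-fold higher (95% interval 1.81 to 2.38) in Vegfc CRE. Tnn had 90.6 CPM in tenocytes against 39.8 in fibroblasts at day 21 (2.28-fold higher, interval 1.80 to 2.90) and 299.9 against 146 CPM in Vegfc CRE (2.05-fold higher, interval 1.95 to 2.15). Ecrg4, a secreted peptide precursor, had 1946 CPM in tenocytes against 678 in fibroblasts at day 21 (2.87-fold higher, interval 2.72 to 3.03) and 1636 against 848 CPM in Vegfc CRE (1.93-fold higher, interval 1.89 to 1.97). Chodl, the gene of the membrane lectin chondrolectin, belongs to the muscle progenitor list, stood in the Ptx4 cluster and had 66.8 CPM in tenocytes against 12.2 in fibroblasts at day 21 (5.47-fold higher, interval 3.73 to 8.28) and 32.2 against 0.332 CPM in Vegfc CRE (97.1-fold higher, interval 46.7 to 243). Among the lower genes, Hmcn2, a hemicentin of the extracellular matrix, had 7.35 CPM in tenocytes against 63.8 in fibroblasts at day 21 (8.68-fold lower, interval 5.49 to 14.4) and 3.01 against 12.7 CPM in Vegfc CRE (4.22-fold lower, interval 2.97 to 6.15). Efemp1, the gene of fibulin-3, of the elastic fibre list, had 47.2 CPM in tenocytes against 148 in fibroblasts at day 21 (3.13-fold lower, interval 2.57 to 3.84) and 24.7 against 101 CPM in Vegfc CRE (4.07-fold lower, interval 3.60 to 4.61). F3, the gene of tissue factor, and Tmem100, a membrane protein gene, were 4.76-fold lower (95% interval 3.63 to 6.32) and 3.54-fold lower (95% interval 2.98 to 4.22) at day 21, and 2.85-fold lower (95% interval 2.44 to 3.35) and 4.68-fold lower (95% interval 3.77 to 5.87) in Vegfc CRE.

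Markers of other cell types, summed by type, lay on either side of the fibroblast level in the tenocytes. Those of macrophages were near it, and mural and mature muscle markers lay above it in both libraries. The 10 macrophage markers summed to 17.8 CPM in tenocytes, 20.5 in fibroblasts and 554 over all cells at day 21, and to 148 CPM in tenocytes, 148 in fibroblasts and 6931 over all cells in Vegfc CRE. The 8 neutrophil markers summed to 36.0 CPM in tenocytes, 25.6 in fibroblasts and 105 over all cells at day 21, where 5 were at 0 in tenocytes, and to 107 CPM in tenocytes, 101 in fibroblasts and 4165 over all cells in Vegfc CRE. The 9 blood endothelial markers, of which the rule holds Pecam1 and Cdh5 at 0, summed to 22.0 CPM in tenocytes, 35.4 in fibroblasts and 1609.6 over all cells at day 21, and to 22.5 CPM in tenocytes, 28.0 in fibroblasts and 608 over all cells in Vegfc CRE. The 7 lymphatic endothelial markers summed to 223 CPM in tenocytes, 226 in fibroblasts and 7531 over all cells at day 21, and to 102 CPM in tenocytes, 151 in fibroblasts and 102 over all cells in Vegfc CRE. The 9 mural markers summed to 211 CPM in tenocytes, 96.5 in fibroblasts and 415 over all cells at day 21, and to 191 CPM in tenocytes, 101 in fibroblasts and 491 over all cells in Vegfc CRE. Rgs5, a defining pericyte gene, was 13.6-fold higher (95% interval 8.53 to 22.9) in tenocytes at day 21 and 5.49-fold higher (95% interval 4.89 to 6.18) in Vegfc CRE, but 5% and 7.83% of tenocytes held a UMI of it, and 1 cell held 45.2% of the UMIs at day 21. The 10 mature muscle markers summed to 116 CPM in tenocytes, 53.6 in fibroblasts and 2678 over all cells at day 21, and to 57.2 CPM in tenocytes, 17.2 in fibroblasts and 133 over all cells in Vegfc CRE. In Vegfc CRE 7 of 7 muscle markers compared were at least 2-fold higher, and 0 of 6 were once each gene was taken without its highest cell in either group, an alternative chosen after the data were seen. The 9 muscle progenitor markers, of which the rule holds Pax7 at 0, summed to 201 CPM in tenocytes and 122 in fibroblasts at day 21. In Vegfc CRE they summed to 124 and 117 CPM. In each library 1 of 3 compared was at least 2-fold higher, with median log2 folds of 0.41 and -0.01. That gene was Chodl, which also led the Ptx4 cluster. The 7 adipocyte markers summed to 8.75 CPM in tenocytes and 6.30 in fibroblasts at day 21, and to 105 and 205 CPM in Vegfc CRE. The part of other cells in the results above was not tested.

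Between the libraries, tenocytes of Prox1 eGFP day 21 held more transcripts of resting fibroblast, immediate early and BMP target genes than those of Vegfc CRE day 7, and fewer of the cell cycle. Of 11571 genes compared, 690 were at least 2-fold higher at day 21, 5.96%, and 846 lower, 7.31%, with a median log2 fold of 0.01. Line, day and possibly sorting and sex differ between these libraries, and the fibroblasts of the same libraries show how far such differences were shared. In all, 766 of 12376 genes were higher in them at day 21, 6.19%, and 1221 lower, 9.87%. The tenocyte markers themselves differed by less than 2-fold between the libraries. Tnmd, which chose the cells, had 1284 CPM at day 21 and 919.8 in Vegfc CRE, Scx 199.8 and 228, and Mkx 15.7 and 15.3. Fmod was 1.20-fold lower (95% interval 1.15 to 1.26) at day 21, Thbs4 1.28-fold lower (95% interval 1.24 to 1.32) and Kera 1.41-fold higher (95% interval 1.28 to 1.55). The tendon matrix list had 4 higher and 1 lower of 22 compared, with a median log2 fold of 0.32. Chad, at 133 CPM at day 21 and 19.2 in Vegfc CRE, was 6.92-fold higher (95% interval 5.86 to 8.18), Cilp2 was 3.87-fold higher (95% interval 3.37 to 4.45) and Ptx4 2.99-fold higher (95% interval 2.39 to 3.72). Prg4, the gene of the lubricant lubricin, went the other way, with 87.8 and 406 CPM, 4.62-fold lower (95% interval 4.07 to 5.27).

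The resting fibroblast list had 15 higher and 0 lower of 21 compared, with a median log2 fold of 1.56, and in fibroblasts 13 higher and 0 lower of 21 compared, with a median log2 fold of 1.32. Pi16 had 728 CPM in day 21 tenocytes and 139 in those of Vegfc CRE, 5.25-fold higher (95% interval 4.92 to 5.61), and in fibroblasts it was 1.77-fold higher (95% interval 1.69 to 1.85). Different clusters make up the members of the libraries. The Pi16 cluster is 30.8% of them at day 21 and 11.1% in Vegfc CRE, and the day 21 cluster of 19 cells also held 1038 CPM of Pi16. Has1, a hyaluronan synthase gene, was 7.47-fold higher (95% interval 5.76 to 9.74) in tenocytes and 5.12-fold higher (95% interval 4.35 to 6.02) in fibroblasts. Myoc had 398 and 18.8 CPM, 21.2-fold higher (95% interval 18.3 to 24.5), and in fibroblasts it was 12.3-fold higher (95% interval 11.3 to 13.4). Il33 was 8.55-fold higher (95% interval 7.06 to 10.4) in tenocytes and 2.20-fold higher (95% interval 1.94 to 2.49) in fibroblasts. The immediate early and heat shock list had 10 higher and 2 lower of 20 compared, with a median log2 fold of 1.03, and in fibroblasts 11 higher and 1 lower of 20 compared, with a median log2 fold of 1.12. Atf3, a stress-induced factor, was 7.90-fold higher (95% interval 6.88 to 9.08) in tenocytes and 4.69-fold higher (95% interval 4.25 to 5.17) in fibroblasts, whereas Hspa1b, a heat shock gene, was 4.31-fold lower (95% interval 3.76 to 4.97) in tenocytes. The BMP and GDF pathway list had 7 higher and 0 lower of 23 compared, with a median log2 fold of 0.55, and in fibroblasts 9 higher and 2 lower of 24 compared, with a median log2 fold of 0.45. The higher genes in tenocytes included Id1, Id2, Id3 and Id4, targets of BMP signalling, with Id1 3.87-fold higher (95% interval 2.69 to 5.56) and Id4 4.12-fold higher (95% interval 2.91 to 5.85). Ccn2, a target of TGF-beta and YAP, had 366 and 83.7 CPM, 4.38-fold higher (95% interval 4.01 to 4.78), and was 4.64-fold higher (95% interval 4.20 to 5.13) in fibroblasts.

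Cell cycle genes were lower in day 21 tenocytes, 0 higher and 17 lower of 21 compared, with a median log2 fold of -2.46, and in fibroblasts 0 higher and 14 lower of 21 compared, with a median log2 fold of -1.47. Mki67 had 5.25 CPM in day 21 tenocytes and 23.0 in those of Vegfc CRE, 4.38-fold lower (95% interval 2.61 to 7.93), and Top2a, a topoisomerase of dividing cells, 8.4 and 36.9 CPM, 4.39-fold lower (95% interval 2.91 to 6.93). At day 21, 1 cell held 66.7% of the Mki67 UMIs and 62.5% of those of Top2a. The injury-activated fibroblast list had 5 higher and 3 lower of 28 compared, with a median log2 fold of -0.11, and in fibroblasts 6 higher and 7 lower of 28 compared, with a median log2 fold of -0.37. Tnc and Tgfbi were its lowest members in tenocytes, and Ccn2 and Ccn5 its highest. Tnc, the gene of tenascin-C, had 217 and 617 CPM, 2.84-fold lower (95% interval 2.62 to 3.09), and was 4.30-fold lower (95% interval 3.83 to 4.85) in fibroblasts. Tnn was 3.31-fold lower (95% interval 2.92 to 3.77), Fbn2, the gene of fibrillin-2, 3.71-fold lower (95% interval 3.19 to 4.32), and Tgfbi, a collagen-binding protein gene, 3.28-fold lower (95% interval 2.93 to 3.68). Lox, the gene of lysyl oxidase that cross-links collagen, had 473 and 954 CPM, 2.02-fold lower (95% interval 1.91 to 2.14). Collagen processing as a list had 1 higher and 2 lower of 31 compared, with a median log2 fold of -0.35. Acan was 2.50-fold lower (95% interval 2.24 to 2.80) in day 21 tenocytes, whereas the cartilage list as a whole had 12 higher and 4 lower of 23 compared, with a median log2 fold of 1.05. Without the cell that held most Col2a1, it had 5 higher and 8 lower of 22, with a median of -0.55, so that cell set the sign.

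Several of the genes lowest in day 21 tenocytes against those of Vegfc CRE are genes of leukocytes. S100a8 had 0 CPM at day 21 and 30.9 in Vegfc CRE, at least 29.5-fold lower, and C1qa 1.05 and 17.1 CPM, 16.3-fold lower (95% interval 5.51 to 79.8). The macrophage list had 0 higher and 6 lower of 7 compared, with a median log2 fold of -3.37, and in fibroblasts 0 higher and 8 lower of 9 compared, with a median log2 fold of -2.70. Macrophage markers summed over all cells of a library came to 554 CPM for day 21 against 6931 for Vegfc CRE, so they differed in the same direction in the whole libraries. The part of free RNA was not tested. Fabp4, a fatty acid binding protein gene, was 19.6-fold lower (95% interval 11.8 to 35.1) in tenocytes and 56.7-fold lower (95% interval 29.8 to 124) in fibroblasts. Gzme, a granzyme gene that marked a Vegfc CRE cluster, was 17.4-fold lower (95% interval 9.40 to 36.4) in tenocytes, with 16.5% of its Vegfc CRE UMIs in 1 cell. Gm10260 and Gm11361, at 0 CPM in day 21 tenocytes and 147 and 19.4 in Vegfc CRE, are predicted genes without a functional name. Whether reads are shared with similar genes was not tested, so they are uncertain. Sex-linked genes also differed, with Xist, the transcript of the inactive X chromosome, at 352 CPM in day 21 tenocytes and 215 in those of Vegfc CRE, and the Y-linked Ddx3y at 2.80 and 20.3 CPM. The part of the animals' sex was not tested.

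**Figure D5:**
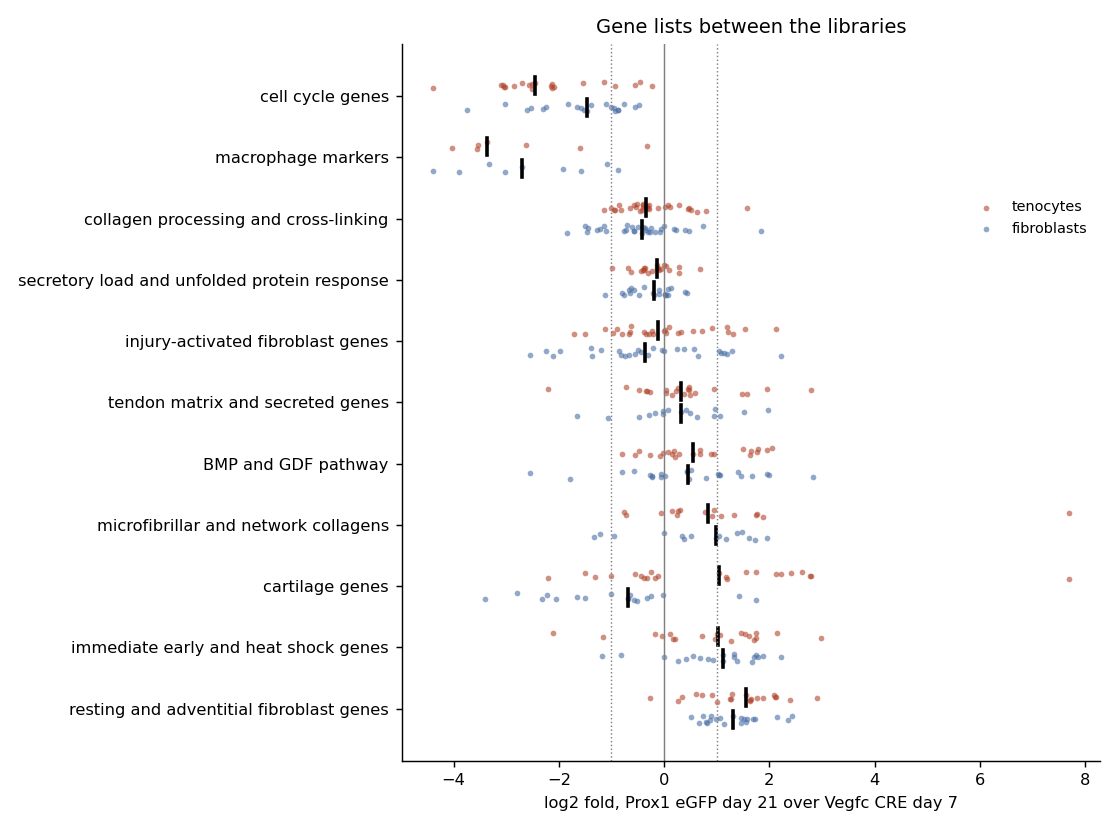
Log2 fold of Prox1 eGFP day 21 over Vegfc CRE day 7 for the members of gene lists, in tenocytes (red, upper row of each list) and in Pdgfra fibroblasts (blue, lower row), with black bars at the medians and dotted lines at 2-fold. The median of the resting fibroblast list lies above 0 in both cell groups, at 1.56 and 1.32. That of the cell cycle list lies below 0 in both, at -2.46 and -1.47. The cartilage list has 1.05 in tenocytes and -0.69 in fibroblasts. Without the day 21 tenocyte that held most Col2a1, the tenocyte median of the cartilage list lies below 0 too.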

How the data were processed

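The authors deposited raw UMI counts for each gene in each barcode. Cell Ranger 5.0.1 and mm10 are named in the submitters' processing notes, and a Single Cell 3' kit in the labels. Further filters by the authors are not given in the sources used here, and transgene transcripts were not analysed here. The 4 libraries held 717, 5051, 6704 and 8711 barcodes and 6761289, 59312181, 59894792 and 92568978 UMIs in Prox1 eGFP days 0, 7 and 21 and Vegfc CRE day 7. The 2 libraries of the rule list the same 32285 genes.

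Counts were summed per library and cell group and divided by the group's total. Folds are ratios of these CPM with exact conditional binomial intervals, and a group at 0 was set to a floor of 3 UMIs over the group. CPM intervals are Poisson, shares Clopper-Pearson. No doublets were removed. Scrublet, in scanpy 1.11.5 (Python 3.11.15), called 1.36% and 1.54% of the cells at day 21 and in Vegfc CRE, and leaving out the highest scores was an alternative. Clusters used 1000 variable genes, 10 principal components, 15 neighbours and Leiden resolution 0.4. TMM factors came from edgeR 4.0.16. The script was tested on simulated counts. The members and the 37 gene lists were chosen with earlier results of these data known. Named genes are the tenocyte markers, the extremes of each list, and the 10 largest and 10 smallest folds in each direction among genes with at least 100 UMIs seen in at least 10% of cells. Others, such as Comp, Fibin, Angptl7, Acan, Matn4, Lum, Bgn, Aspn, Col11a1, Col3a1, Sox9, C3, Cilp, Postn and Cthrc1, were chosen after their values were seen.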

Additional observations from a re-analysis of the deposited data

Results flagged for a closer look

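For 4 named genes the tenocytes lay above the fibroblasts in one library and below them in the other, and the difference between the libraries was not tested. Col7a1, the gene of the anchoring fibril collagen, had a log2 fold of 1.92 at day 21 and -0.62 in Vegfc CRE, with 11.9 CPM in tenocytes and 3.15 in fibroblasts at day 21 and 4.76 and 7.34 CPM in Vegfc CRE. Mmp9, a gelatinase gene, had 6.05 at day 21, a bound against fibroblasts at 0, with 56.25% of the tenocyte UMIs in 1 cell, and -0.92 in Vegfc CRE. Cxcl5, a neutrophil chemokine gene, had 1.68 at day 21, where tenocytes held 39.2 CPM and fibroblasts 12.2, and -1.40 in Vegfc CRE, where they held 252 and 664 CPM. Saa3, an acute phase gene, had 4.13 at day 21, with 67.8% of the tenocyte UMIs in 1 cell, and -1.25 in Vegfc CRE.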

How the results depend on the processing

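With 1 library per group no library could be left out. No paired analysis was possible because each group is a single library. Of the alternatives, the minimum count moved the numbers of genes at least 2-fold apart most. The number of genes compared changed too, from 9295, 12989 and 11571 in the main run. With at least 100 UMIs over both groups, 94 of 5571 genes were higher and 119 lower in tenocytes than in fibroblasts at day 21. In Vegfc CRE these were 144 and 252 of 10827, and between day 21 and Vegfc CRE tenocytes 391 and 366 of 8779. With at least 1 UMI these were 847 and 943 of 16216, 878 and 1111 of 20098, and 1243 higher of 18507. Thinning to 5000 UMIs gave 149 higher of 4748 at day 21, 174 higher of 9965 in Vegfc CRE and 518 lower of 7416 between libraries. A thinning before the choice left 255 Vegfc CRE tenocytes. Limiting members to those with a Scx UMI, chosen after the data were seen, gave 703 lower of 8459 at day 21 and 882 of 12765 in Vegfc CRE. Other scaling, doublet, cell, Tnmd and Pdgfra limits kept these counts within 1.5 times.

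Of 8952 log2 folds of named genes under the alternatives, 7690 stayed within the counting interval of the main value and 1244 moved out of it. Another 18 were at least 2-fold apart in the main run and changed sign. The 7690 include 635 values at a minimum of 100 UMIs and 761 at a minimum of 1 UMI. Those settings change only which genes are compared, so their folds stay the same by construction. Changes of sign among smaller main folds were not counted apart. With a Scx UMI required, Vegfc CRE tenocytes over fibroblasts gave -0.70 for Igf2, -0.30 for Acta1, -1.16 for Tnnc2, -0.22 for Mylpf, -0.0923 for Myl1 and -0.34 for Tnni2, and day 21 over Vegfc CRE gave -0.64 for Col7a1 and -1.70 for Mmp9. With each gene taken without its highest cell, a setting also chosen after the data were seen, Acta1 was at -0.35 at day 21, and Vegfc CRE gave -0.30 for Acta1, -1.61 for Tnnc2, -0.20 for Mylpf, -0.12 for Myl1 and -0.060 for Tnni2. Day 21 over Vegfc CRE then gave -2.09 for Col9a1, -1.87 for Ucma, -1.10 for Col9a3 and -0.47 for Col2a1. A single cell carried each of these main values, by construction of that setting. TMM scaling shifted all log2 folds by 0.02 at day 21, 0.05 in Vegfc CRE and -0.08 between the libraries. The day 21 tenocytes held the fewer UMIs, which limits Mkx and other genes of few counts there.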

Other observations

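Genes of insulin-like growth factor signalling and of bone differed in a few members. In the IGF axis, 2 of 12 at day 21 and 1 of 15 in Vegfc CRE were at least 2-fold higher, 1 and 1 at least 2-fold lower, with median log2 folds of -0.15 and -0.04. Igf1 had 1039 CPM in tenocytes and 1030.1 in fibroblasts at day 21 and 1307 and 972 CPM in Vegfc CRE. Igfbp2 was at 64.7 CPM in day 21 tenocytes and 3.94 in fibroblasts, with 62.7% of the tenocyte UMIs in 1 cell. Igfbp6, a binding protein with preference for IGF-II, was 3.17-fold higher (95% interval 3.03 to 3.32) in tenocytes at day 21 than in Vegfc CRE, and 3.94-fold higher (95% interval 3.80 to 4.07) in fibroblasts. In the bone list, 1 of 5 at day 21 and 0 of 11 in Vegfc CRE were at least 2-fold higher, 1 and 4 at least 2-fold lower, with median log2 folds of -0.17 and -0.32. Runx2, the factor of bone formation, had 17.5 and 20.9 CPM at day 21 and 21.7 and 26.4 CPM in Vegfc CRE. Spp1 had 469 CPM in day 21 tenocytes and 58.7 in fibroblasts, with 63.2% of the tenocyte UMIs in 1 cell, and 501 and 624 CPM in Vegfc CRE.

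The median fold of microfibrillar and network collagens was above 0 on the log2 scale at day 21 against Vegfc CRE in both cell groups. In tenocytes the list had 6 higher and 0 lower of 16 compared, with a median log2 fold of 0.84, and in fibroblasts 7 higher and 2 lower of 15 compared, with a median log2 fold of 0.99. Col15a1 was 3.40-fold higher (95% interval 2.80 to 4.11) in day 21 than in Vegfc CRE tenocytes. Col8a2, a short-chain collagen of basement membranes, differed between the cell types instead, with 38.1 CPM in tenocytes against 11.8 in fibroblasts at day 21 (3.23-fold higher, interval 2.14 to 5.01) and 63.4 against 23.0 CPM in Vegfc CRE (2.76-fold higher, interval 2.46 to 3.10). Fgf18, a ligand that acts on cartilage cells, had 24.5 CPM in day 21 tenocytes and 2.67 in those of Vegfc CRE, 9.16-fold higher (95% interval 5.95 to 14.4), and was 7.86-fold higher (95% interval 5.94 to 10.4) in fibroblasts. Wnt16 had 35.0 and 6.6 CPM, 5.30-fold higher (95% interval 3.91 to 7.21). Ctsk, the gene of the collagen-degrading protease cathepsin K, had 1471 and 536 CPM, 2.74-fold higher (95% interval 2.64 to 2.85), and it made up most of the osteoclast marker sum of 1605 CPM in day 21 tenocytes and 580.0 CPM in Vegfc CRE.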
